A study of Homo sapiens with 10 samples.

Results

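The H3K9 methyltransferase and HP1 genes are 10 genes chosen by symbol from a written list, out of the 58884 genes in the count tables. CBX5, CBX1 and CBX3 encode the HP1 proteins alpha, beta and gamma. SETDB1, SETDB2, SUV39H1, SUV39H2, EHMT1 and EHMT2 encode methyltransferases of the SET domain family, and ATF7IP encodes the partner of SETDB1. RNA was compared between HCT116, a human colorectal carcinoma line of wild-type genotype (WT in the labels), and DNMT1 KO, cells made from HCT116 by targeting DNMT1, which encodes the enzyme that copies DNA methylation after replication. According to the study's description DNMT1 KO is a hypomorph, in which a truncated DNMT1 protein persists, so it is not a null. Each genotype is represented by a single cell line, both lines came from the same donating laboratory, and both were grown untreated in the same medium. HCT116 had 6 libraries, numbered 1, 2, 3, 7, 8 and 9, and DNMT1 KO had 4, numbered 1 to 4. The study describes the libraries of each line as separate cultures, so every p-value measures the spread between cultures of 1 line a genotype.

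Methylation of lysine 9 on histone H3 is a mark of heterochromatin. SUV39H1 and SUV39H2 trimethylate it, chiefly at pericentromeric repeats, SETDB1 trimethylates it at retrotransposons and other sites to which KRAB zinc finger proteins and TRIM28 bring it, and the EHMT1 and EHMT2 heterodimer (GLP and G9a) places mono- and dimethylation in euchromatin. HP1 proteins read the methylated residue through a chromodomain and bring further proteins, writers among them, to the same chromatin. In colon cancer cells these domains overlap widely with the late-replicating parts of the genome that lose DNA methylation.

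The smallest and largest HCT116 libraries held 35418732 and 85991812 counts, and those of DNMT1 KO held 26700853 and 55732013. The labels give 4 batches without saying what a batch is. Batch 1 holds replicate 1 of each group, batch 2 replicates 2 and 3 of each group, batch 3 only DNMT1 KO replicate 4, and batch 4 only HCT116 replicates 7, 8 and 9, so batches 3 and 4 carry no within-batch comparison. DNMT1, the targeted gene, had 153 ± 64.2 CPM (counts scaled to a common library total after TMM adjustment, SD, n = 6) in HCT116 and 19.5 ± 3.68 CPM (SD, n = 4) in DNMT1 KO, with a log2 fold change of -2.97 (edgeR quasi-likelihood test, adjusted p = 1.74e-05). Among 10 markers of colon epithelium, 7 were tested, and KRT8, KRT18, EPCAM and CDH1 were lower in DNMT1 KO. VIL1 was higher but near the floor, at 0.00928 ± 0.0227 and 0.6085 ± 0.1413 CPM with at most 46 counts. CDX2 (30.7 ± 9.085 and 36.02 ± 2.721 CPM, adjusted p = 0.601) and CDH17 (adjusted p = 0.887) did not pass. KRT20 had 0 counts in every library. The summed level of the 10 markers was 2003 to 4485 CPM in HCT116 and 456 to 717 CPM in DNMT1 KO. Of 9 markers of other cell types, 4 passed the filter on low counts, and their summed level was 8.91 to 21.9 CPM in HCT116 and 10.4 to 17.4 CPM in DNMT1 KO. COL3A1 (0.0231 ± 0.0284 and 4.83 ± 3.09 CPM) and PECAM1 (0.0989 ± 0.0973 and 1.23 ± 0.351 CPM) were higher in DNMT1 KO. COL1A1 had 12.5 ± 4.27 and 6.72 ± 5.06 CPM (adjusted p = 0.183), and ACTA2 had 1.51 ± 0.897 and 0.532 ± 0.224 CPM (adjusted p = 0.0801, or 0.00665 in the fit with batch). The part of these markers in the members' values was not tested. PTPRC, the defining leukocyte marker, was at or near 0 throughout.

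Of the 10 members, 9 passed the filter on low counts and were tested, and EHMT2 was listed at 0 in every library. CBX5 and ATF7IP rose and SETDB2 fell in DNMT1 KO at an adjusted p under 0.05 (edgeR quasi-likelihood test, group as the sole term, Benjamini-Hochberg over 19279 genes). These are 3 of 9 members, against 16.1% of all genes tested. By direction, 8.45% of all genes rose and 7.61% fell. The same 3 members were the ones whose libraries did not overlap between the groups, which held for 15.2% of all genes (8.4% with DNMT1 KO higher and 6.79% with DNMT1 KO lower). The median log2 fold change was 0.15 over the 9 members and -0.07 over all genes tested. A value above 0 was held by 7 of the 9, and by 8797 of the 19279 genes tested. With batch as a term, 17.8% of all genes but none of the 9 members had an adjusted p under 0.05 in edgeR. At an unadjusted p under 0.05 there were 5 members, and the share of all genes at that level was not counted. DESeq2 with the same term, a fit chosen after seeing the data, called 3 of the 9, again CBX5, ATF7IP and SETDB2. How many of all genes that DESeq2 fit called was not counted at this threshold.

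**Figure D1:**
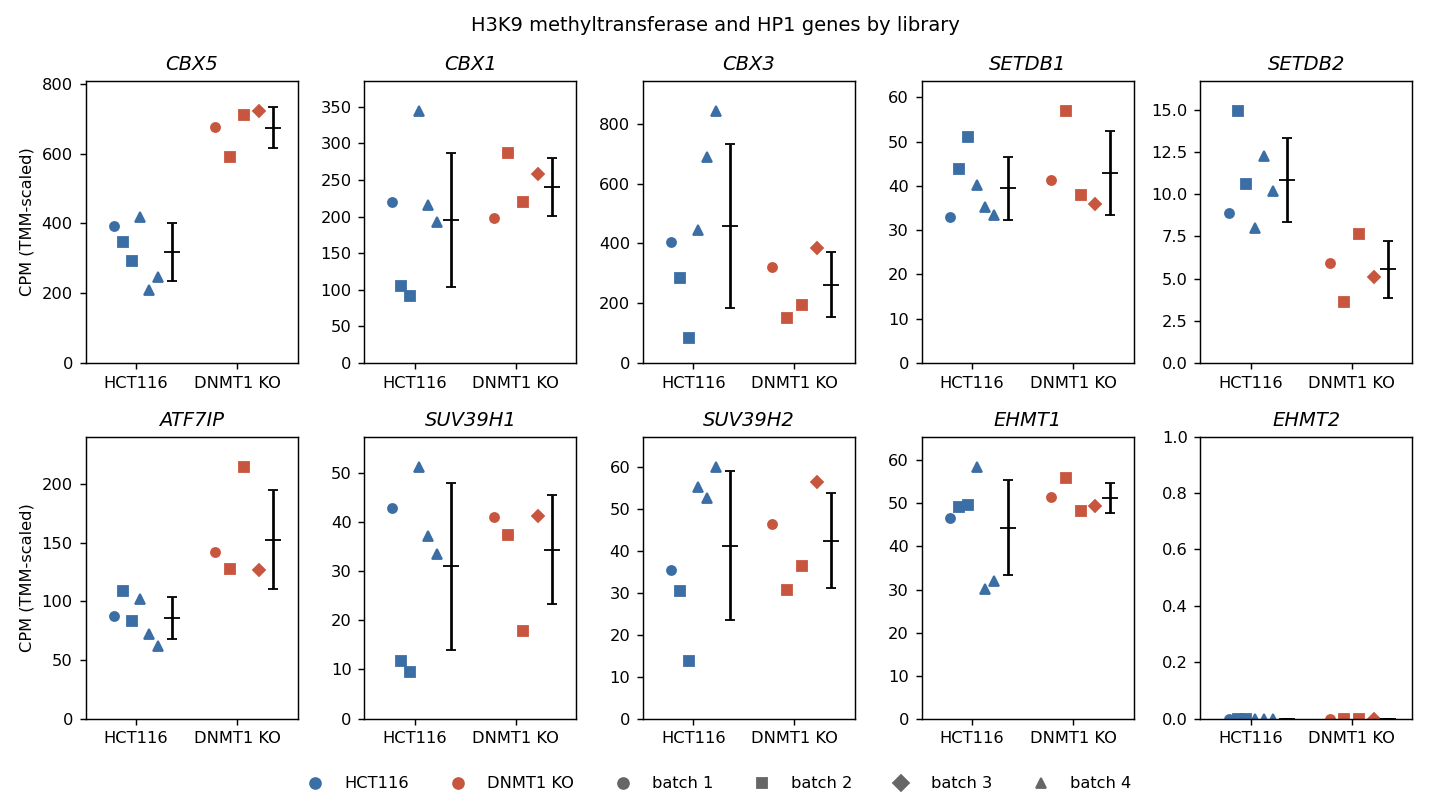
Level of each member in every library, in CPM on TMM-scaled totals, on a linear axis from 0. Points are libraries (colour for the group, shape for the batch) and the black marks give the mean and SD of 6 HCT116 and 4 DNMT1 KO libraries. The groups are separated for CBX5, SETDB2 and ATF7IP, the HCT116 libraries of batch 2 (squares) are low for CBX1 and SUV39H1, and EHMT2 is at 0 throughout.

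CBX5 (ENSG00000094916, hg38 chr12:54230942-54280133, minus strand), the gene of HP1 alpha, changed most among the readers. HCT116 libraries had 209 CPM at the lowest, 320 CPM at the median (n = 6) and 419 CPM at the highest. The DNMT1 KO libraries, in replicate order, had 678, 589.9, 711 and 722 CPM. All 4 DNMT1 KO libraries lay above all 6 HCT116 libraries, and the HCT116 library nearest to them was replicate 7. The means were 318 ± 82.8 CPM and 675 ± 59.7 CPM (SD), a fold of 2.12. The log2 fold change was 1.09 (SE 0.24, adjusted p = 0.00483), and the exact permutation test of log2 CPM, which has 210 arrangements, gave its smallest possible p, 0.00952 (two-sided). Within batch 1 the log2 ratio was 0.78 (1 library a group) and within batch 2 it was 1.02 (2 libraries a group). With batch as a term the log2 fold change was 0.94 (SE 0.32) and the adjusted p was 0.0523 in edgeR and 0.0140 in DESeq2. In batches 1 and 2 alone, with batch as a term, the adjusted p in edgeR was 0.0289. As in any bulk measurement, a change in the RNA of every cell and a change in the share of cells that make it cannot be told apart here.

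CBX1 (ENSG00000108468, chr17:48070052-48101478, minus strand) encodes HP1 beta. Its HCT116 libraries had 92.1 CPM at the lowest, 204 CPM at the median and 344 CPM at the highest, and the DNMT1 KO libraries had 198, 287, 220.2 and 258 CPM. The DNMT1 KO values lay inside the HCT116 range, and the 2 HCT116 libraries of batch 2 were the lowest of all 10. Without batch the log2 fold change was 0.31 (SE 0.33, adjusted p = 0.598), and with it 0.87 (adjusted p = 0.114). The batches differed: the log2 ratio was -0.16 in batch 1 and 1.35 in batch 2. A fit of batch 2 alone gave 1.37 with an adjusted p of 0.0481.

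CBX3 (ENSG00000122565, chr7:26201162-26213607, plus strand) encodes HP1 gamma, the HP1 form found in euchromatin as well as heterochromatin. HCT116 libraries had 84.6 CPM at the lowest, 425 CPM at the median and 842 CPM at the highest, and the DNMT1 KO libraries had 321, 152, 194 and 384 CPM. It was the most variable member in HCT116, with an SD of 59.7% of the mean. Its log2 fold change was -0.80 (SE 0.48, adjusted p = 0.311) without batch and -0.17 (adjusted p = 0.841) with it. Close copies of CBX3 also held counts, and whether those reads came from CBX3 was not tested. The 10 annotated CBX3 pseudogenes together held counts equal to 22.9 to 99.3% of those of CBX3, with 84.8% in HCT116 replicate 3 and 99.3% in DNMT1 KO replicate 2. With the pseudogene counts added, a sum chosen after the values were seen, the difference of mean log2 CPM was -0.54, against -0.59 for CBX3 alone. Reads dropped for low mapping quality are in neither value. For CBX1 the pseudogenes came to 7.03 to 15.7%, and for CBX5 to at most 0.108%.

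Levels can be compared between genes only per length, for which TPM, counts divided by the exon length in the tables and scaled to a common sum, were used. That length covers all annotated exons of a gene, at 15038 bases for CBX5, 4840 for CBX3 and 3044 for CBX1. The order by TPM depends on it, and the length of the transcripts present was not measured. In HCT116 the HP1 genes were the most abundant members, at 210.1 ± 116 TPM for CBX3, 145 ± 70.7 TPM for CBX1 and 49.5 ± 16.3 TPM for CBX5 (SD, n = 6). CBX3 and CBX1 overlapped between libraries, and CBX1 exceeded CBX5 in 6 of 6. In DNMT1 KO the same genes had 155 ± 60.5, 226 ± 30.5 and 129.5 ± 21.6 TPM (SD, n = 4), and CBX3 and CBX5 overlapped, with CBX3 higher in 2 of 4 libraries. CBX5 made up 14.6 ± 8.70% of the summed HP1 TPM in HCT116 and 25.4 ± 3.05% in DNMT1 KO. That share ran from 6.13 to 28.9% in HCT116 and from 22.6 to 29.6% in DNMT1 KO, and HCT116 replicate 3 lay inside the DNMT1 KO range. The sum holds CBX3 without its pseudogene counts. Those counts were highest relative to CBX3 in HCT116 replicate 3 and DNMT1 KO replicate 2, where CBX3 made up 26% and 19.1% of the sum. The summed HP1 level was 405 ± 155 TPM and 510 ± 65.8 TPM.

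**Figure D2:**
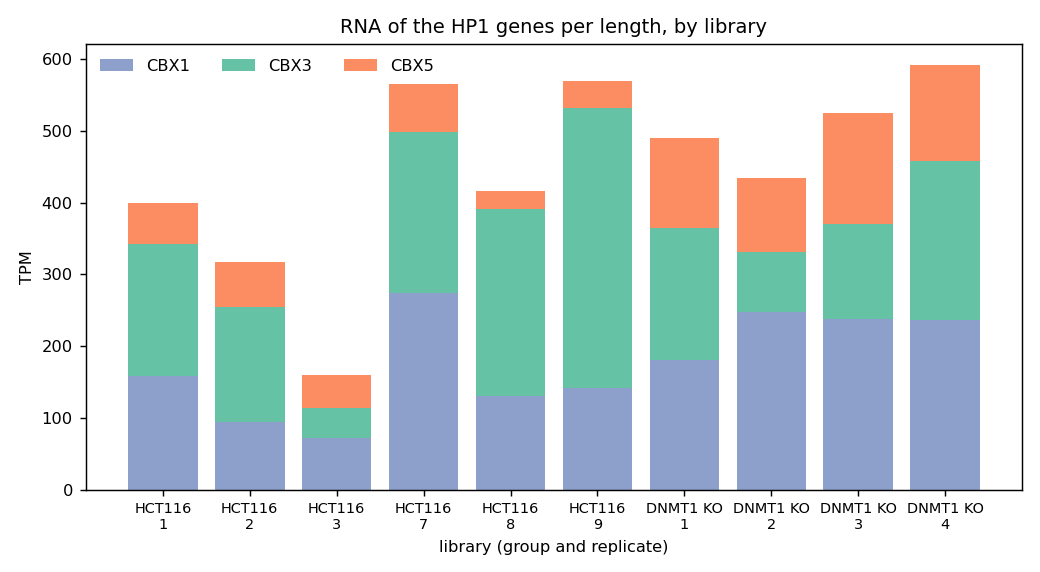
TPM of CBX1, CBX3 and CBX5 stacked for each library, named by group and replicate. The CBX5 segment holds 22.6 to 29.6% of the bar in the 4 DNMT1 KO libraries and 6.13 to 28.9% in the 6 HCT116 libraries, and HCT116 replicate 3 has the lowest bar.

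The tests of ratios show how far one member can be said to differ from its relatives. A ratio taken inside a library does not depend on the scaling factor. Of 6 ratios, 3 had an unadjusted exact permutation p under 0.05 and none remained under 0.05 after adjustment over the 6. CBX5 relative to CBX3 was higher in DNMT1 KO by 1.71 on the log2 scale (exact permutation p = 0.0381, adjusted p = 0.0762) and the groups overlapped. CBX3 enters that ratio without its pseudogene counts. CBX5 relative to CBX1 was higher by 0.69 (exact permutation p = 0.124, adjusted p = 0.149), at 0.94 in batch 1 but -0.33 in batch 2. A rise particular to CBX5 among the HP1 genes was therefore not shown.

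The start of CBX5 lies beside another gene. HNRNPA1, which encodes an abundant splicing factor, starts 60 bases away on the opposite strand. A start on the opposite strand within 1000 bases is found at 26.6% of the protein-coding genes in the tables and at 7 of the 10 members, and at CBX3 the 2 genes overlap rather than diverge. The windows of CBX5, SETDB2 and ATF7IP are shown because these 3 members changed and each window holds 2 gene starts. Each covers 250 bases before to 50 bases after the RefSeq start nearest the annotated gene start on hg38, 5′ to 3′ along the member's strand. Capitals mark CpG, the dinucleotide on which DNMT1 acts, whether or not it is methylated here.
CBX5, chr12:54280073-54280372, minus strand: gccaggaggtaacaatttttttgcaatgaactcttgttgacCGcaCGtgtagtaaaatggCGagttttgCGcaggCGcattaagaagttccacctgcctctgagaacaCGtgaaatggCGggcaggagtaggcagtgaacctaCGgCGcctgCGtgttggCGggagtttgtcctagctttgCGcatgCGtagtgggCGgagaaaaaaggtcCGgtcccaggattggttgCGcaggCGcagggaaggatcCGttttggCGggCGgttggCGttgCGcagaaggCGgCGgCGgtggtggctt
SETDB2, chr13:49444024-49444323, plus strand: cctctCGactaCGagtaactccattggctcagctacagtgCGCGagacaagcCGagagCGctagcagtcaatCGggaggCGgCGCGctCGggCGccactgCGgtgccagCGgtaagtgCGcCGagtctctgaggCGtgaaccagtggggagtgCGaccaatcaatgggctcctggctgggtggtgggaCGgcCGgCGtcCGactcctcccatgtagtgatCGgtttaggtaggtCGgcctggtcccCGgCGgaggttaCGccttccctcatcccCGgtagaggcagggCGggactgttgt
ATF7IP, chr12:14365432-14365731, plus strand: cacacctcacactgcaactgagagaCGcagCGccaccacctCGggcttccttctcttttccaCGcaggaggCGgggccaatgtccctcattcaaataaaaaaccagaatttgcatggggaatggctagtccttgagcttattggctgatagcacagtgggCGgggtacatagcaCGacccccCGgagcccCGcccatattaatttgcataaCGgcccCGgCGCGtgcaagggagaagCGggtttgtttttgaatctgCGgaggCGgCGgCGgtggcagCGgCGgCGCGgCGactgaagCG
The windows held 25 CpG for CBX5, 29 for SETDB2 and 24 for ATF7IP, above a median of 14 over the 35116 windows of all genes. Of all windows, 68%, 75.8% and 66.1% held fewer than these 3, so such numbers are common. Members that did not pass the test spanned a wider range, from 7 for SUV39H1 to 51 for EHMT1. No DNA methylation was measured in these libraries. Words were searched on both strands, and a match on either counted. The CCAAT box was present in these 3 windows and in no other member's, and in 34.6% of all windows. The NRF1 core GCATGCG was present in CBX5 and SETDB1, and in 3.91% of all windows. The ETS word CCGGAAG and the E2F word TTGGCGC were found in CBX3 (10.3% and 3.04% of all windows) and the CRE word TGACGTC in SUV39H2 (3.45%), while the E2F word TTCGCGC was in no member's window (2.24%). No word searched contains another, and these are matches of letters only.

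Genes that start side by side were compared next. HNRNPA1 had 238 ± 83.6 CPM in HCT116 and 189.9 ± 50.0 CPM in DNMT1 KO (log2 fold change -0.33, adjusted p = 0.554), while CBX5 across the shared start region was higher. The 74 annotated HNRNPA1 pseudogenes together held counts equal to 3.59 to 12.5% of those of HNRNPA1. Reads dropped for low mapping quality are in neither. The log2 ratio of CBX5 to HNRNPA1 was higher in DNMT1 KO by 1.39 (exact permutation p = 0.0286, adjusted p = 0.0715 over 5 such ratios, which were chosen after the values were seen). The groups overlapped in that ratio, and it did not pass after adjustment. HNRNPA2B1, which starts 367 bases inside CBX3 on the other strand, had a log2 fold change of -0.14 (adjusted p = 0.848). It shares 7.6% of the exon bases of CBX3, and since no strand option is named for the counting, reads in that stretch cannot be assigned to either gene.

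SETDB2 (ENSG00000136169, chr13:49444274-49495003, plus strand), a relative of SETDB1, was the member that fell. HCT116 libraries had 7.98 CPM at the lowest, 10.4 CPM at the median and 14.9 CPM at the highest. The DNMT1 KO libraries had 5.91, 3.61, 7.62 and 5.07 CPM. All of these lay below the HCT116 libraries, but by little, with 7.62 CPM in DNMT1 KO replicate 3 next to 7.98 CPM in HCT116 replicate 7. The means were 10.8 ± 2.49 CPM (SD, n = 6) and 5.55 ± 1.67 CPM (SD, n = 4), which is 0.514 times the HCT116 level. The log2 fold change was -0.96 (SE 0.29, adjusted p = 0.0326). It rests on 146 to 877 counts a library. With batch as a term it was -0.99 (adjusted p = 0.0585 in edgeR and 0.0265 in DESeq2), and within batches 1 and 2 the log2 ratios were -0.59 and -1.26. The call was lost without any one of HCT116 replicates 2 or 8 or DNMT1 KO replicates 1, 2 or 4, with adjusted p-values of 0.0630 to 0.115 and log2 fold changes of -0.99 to -0.80.

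The gene that starts 210 bases from SETDB2 on the opposite strand, CAB39L, which encodes a scaffold protein related to the LKB1 partner CAB39, fell as well. CAB39L had 6.75 CPM at the lowest, 9.65 CPM at the median and 21.5 CPM at the highest in HCT116, and 1.36, 1.78, 4.75 and 1.22 CPM in DNMT1 KO. The groups did not overlap. Its log2 fold change was -2.36 (adjusted p = 0.00276), and the fit with batch gave -2.63 (adjusted p = 9.68e-05). The log2 ratio of SETDB2 to CAB39L was higher in DNMT1 KO by 1.50 (exact permutation p = 0.00952, the smallest possible, adjusted p = 0.0476 over the 5 ratios). That ratio was also chosen after the values were seen. Both genes fell, and CAB39L had the larger fall in these libraries.

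**Figure D3:**
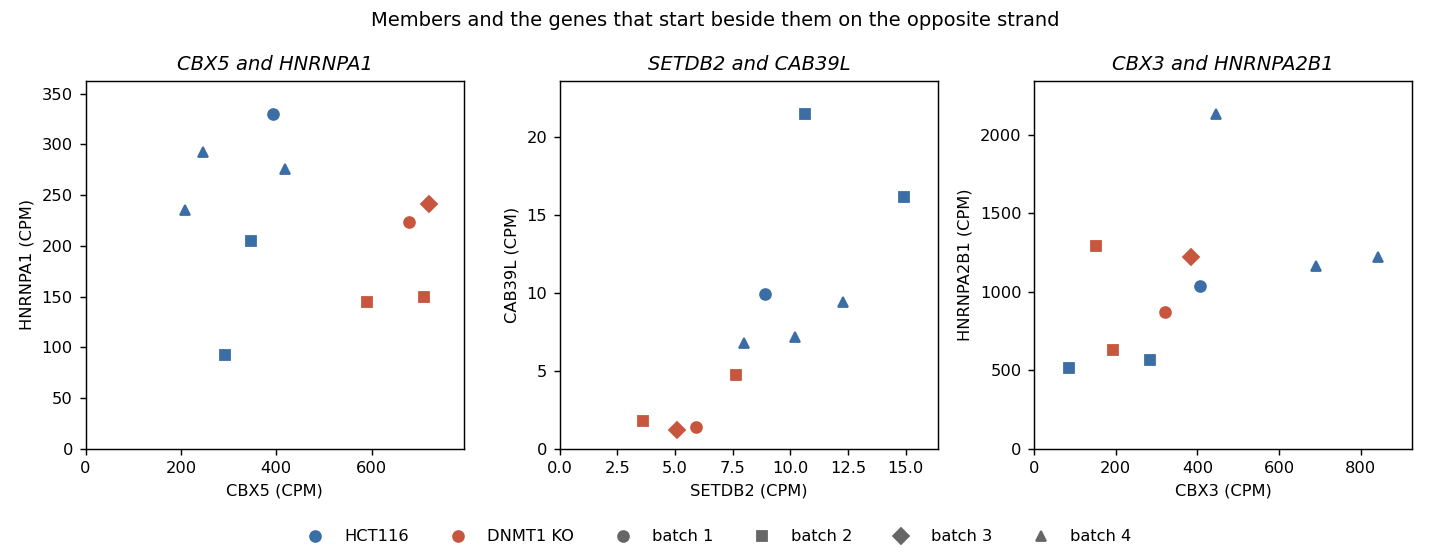
Each member against the gene starting near it on the opposite strand, in CPM, 1 point a library (colour for the group, shape for the batch), linear axes from 0. DNMT1 KO libraries lie apart from HCT116 along CBX5 but not along HNRNPA1, along both axes for SETDB2 and CAB39L, and along neither for CBX3 and HNRNPA2B1.

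SETDB1 (ENSG00000143379, chr1:150926263-150964744, plus strand) had 33.0 CPM at the lowest, 37.8 CPM at the median and 50.9 CPM at the highest in HCT116, and 41.3, 56.8, 37.8 and 35.9 CPM in DNMT1 KO. The groups overlapped, with DNMT1 KO replicate 2 the highest of all. Its log2 fold change was 0.12 (SE 0.22, adjusted p = 0.768), and 0.11 (adjusted p = 0.851) in the fit with batch. Of its exon bases, 13.4% are shared with CERS2 on the other strand. The log2 ratio of SETDB1 to SETDB2 was higher in DNMT1 KO by 1.10 (exact permutation p = 0.0190, adjusted p = 0.0762).

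ATF7IP (ENSG00000171681, chr12:14365676-14502931, plus strand) encodes the protein that binds SETDB1 and keeps it in the nucleus. HCT116 libraries had 61.6 CPM at the lowest, 85.5 CPM at the median and 109 CPM at the highest, and the DNMT1 KO libraries had 142, 127, 215 and 126 CPM. All DNMT1 KO libraries were above all HCT116 libraries, with replicate 3 well above the other 3. The means were 85.9 ± 17.6 CPM (SD, n = 6) and 153 ± 42.1 CPM (SD, n = 4), a fold of 1.78. The log2 fold change was 0.83 (SE 0.23, adjusted p = 0.0244). Within batches 1 and 2 the log2 ratios were 0.69 and 0.80, and with batch as a term it was 0.79 (adjusted p = 0.0807 in edgeR and 0.0487 in DESeq2). Without DNMT1 KO replicate 1 the adjusted p was 0.0510, and without replicate 3 the log2 fold change was 0.65 (adjusted p = 0.0891). Relative to SETDB1, the log2 ratio of ATF7IP was higher by 0.70 (exact permutation p = 0.0381, adjusted p = 0.0762), at 0.37 in batch 1 and 0.83 in batch 2. The ATF7IP start also faces another start, that of the pseudogene RPL30P11 at 173 bases, which had at most 11 counts in a library and was not tested.

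SUV39H1 (ENSG00000101945, chrX:48695554-48709016, plus strand) ranged widely in HCT116, from 9.47 CPM at the lowest through 35.3 CPM at the median to 51.2 CPM at the highest. DNMT1 KO libraries had 40.9, 37.4, 17.9 and 41.2 CPM. The groups overlapped, and the 2 HCT116 libraries of batch 2, at 11.6 and 9.47 CPM, were the lowest. The log2 fold change was 0.15 (SE 0.43, adjusted p = 0.858) without batch and 0.91 (adjusted p = 0.0977) with it, from log2 ratios of -0.06 in batch 1 and 1.30 in batch 2. An antisense gene shares 20.3% of its exon bases.

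SUV39H2 (ENSG00000152455, chr10:14878820-14904315, plus strand) had 13.7 CPM at the lowest, 44.1 CPM at the median and 60.2 CPM at the highest in HCT116, and 46.4, 30.7, 36.4 and 56.6 CPM in DNMT1 KO. HCT116 replicate 3 was again the lowest, and the groups overlapped. At 0.04 (SE 0.35, adjusted p = 0.953) the log2 fold change was close to 0, and the fit with batch gave 0.53 (adjusted p = 0.264). Between the groups, the log2 ratio of SUV39H1 to SUV39H2 differed by 0.17 (exact permutation p = 0.667). Per length, both ranked below the HP1 genes, with SUV39H2 at 26.2 ± 10.8 TPM and SUV39H1 at 20.6 ± 11.3 TPM in HCT116 (SD, n = 6), and their libraries overlapped. SUV39H2-DT, the noncoding RNA that starts 93 bases away on the other strand, had 0.857 ± 0.442 CPM and 1.11 ± 0.344 CPM (adjusted p = 0.668).

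EHMT1 (ENSG00000181090, chr9:137618992-137870016, plus strand) was the steadiest member in DNMT1 KO, at 51.4, 56.0, 48.3 and 49.3 CPM. HCT116 libraries had 30.1 CPM at the lowest, 47.8 CPM at the median and 58.5 CPM at the highest, with replicates 8 and 9 low. The DNMT1 KO values lay inside that range. Its log2 fold change was 0.21 (SE 0.23, adjusted p = 0.603), and 0.10 (adjusted p = 0.873) in the fit with batch. ARRDC1-AS1, which starts 86 bases away on the other strand, had a log2 ratio of EHMT1 to it that differed by 0.40 (exact permutation p = 0.343).

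EHMT2 (ENSG00000204371, chr6:31879759-31897698, minus strand), the gene of G9a, was listed at 0 counts in all 10 libraries, and C2, 87 bases away, was also at 0. The zeros were not particular to EHMT2. It lies in the major histocompatibility complex, and of 99 protein-coding genes within the window chr6:30879759-32897698, 94 (94.9%) were at 0 in every library and all 99 had under 10 counts in every library. Elsewhere on chromosome 6, 17.6% of 935 protein-coding genes were at 0 in every library, and 13.5% of 19770 were outside the window on all chromosomes. DAXX, an HP1 partner also on chromosome 6, had 0.195 ± 0.0928 CPM and 0.0261 ± 0.0521 CPM and did not pass the filter. The 0 is therefore a property of the tables over a whole region, its cause was not tested, and no statement about EHMT2 expression, about a ratio of EHMT1 to EHMT2 or about a difference between the groups can be made.

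**Figure D4:**
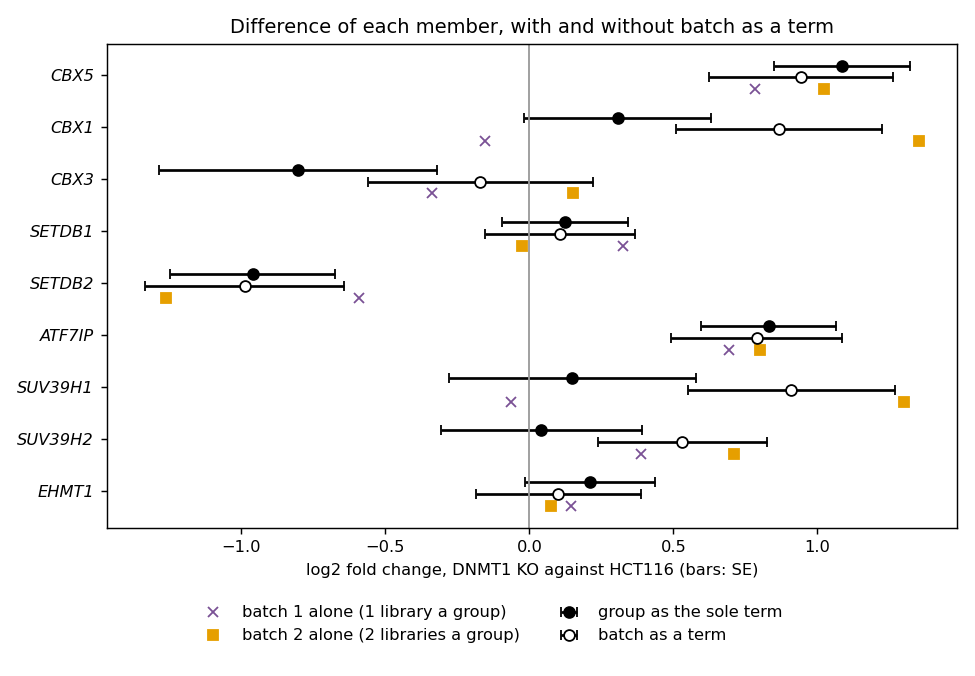
Log2 fold change of DNMT1 KO against HCT116 for the 9 tested members. Filled circles give the edgeR fit with group as the sole term and open circles the fit with batch as a term (bars are SE), crosses the log2 ratio in batch 1 and squares that in batch 2. The estimates of CBX5, ATF7IP and SETDB2 keep their sign throughout, as do those of EHMT1 and SUV39H2. Those of CBX1 and SUV39H1 lie near 0 in batch 1 and above 1 in batch 2.

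The remaining ranks were lower. Per length in HCT116, ATF7IP had 15.2 ± 4.79 TPM and SETDB1 12.9 ± 3.51 TPM, and these neighbours in the order overlapped. EHMT1 at 4.68 ± 1.56 TPM and SETDB2 at 3.75 ± 1.20 TPM also overlapped, with EHMT1 higher in 3 of 6 libraries (SD, n = 6). Before division by length, EHMT1 had 44.3 CPM and SETDB2 10.8 CPM in HCT116. Their annotated exon lengths were 22188 and 6678 bases. In DNMT1 KO, EHMT1 at 6.61 ± 0.409 TPM exceeded SETDB2 at 2.44 ± 0.977 TPM in 4 of 4 libraries with no overlap. ATF7IP, at 33.9 ± 13.2 TPM, overlapped with both SUV39 genes there (SD, n = 4).

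The members also varied within HCT116. Comparing batch 4 with batches 1 and 2, 3 libraries a side, edgeR called 8.03% of 18656 genes and none of the 9 members. At an unadjusted p under 0.05 there were 3 members, and how many of all genes reached that level was not counted. CBX3 was higher in batch 4 by 1.35 on the log2 scale (adjusted p = 0.0882), SUV39H2 by 1.07 (adjusted p = 0.0729), SUV39H1 by 0.92 (adjusted p = 0.232) and CBX1 by 0.83 (adjusted p = 0.188). Without HCT116 replicate 1, which leaves batch 4 against batch 2 alone, these 4 had adjusted p-values of 0.0125, 0.0153, 0.00107 and 0.0172. The share of all genes called in that fit was not counted. Each of the 4 passed in only 1 of 7 alternatives of this comparison. The other 5 differed by -0.29 to -0.19. Both HCT116 libraries of batch 2 lay below all 3 of batch 4 for CBX1, CBX3, SUV39H1 and SUV39H2.

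The summed level of 14 proliferation genes separated the same libraries. It was 731 CPM in HCT116 replicate 3, 1481 CPM in replicate 2, 2840 CPM in replicate 1 and 4490 to 5009 CPM in replicates 7 to 9, while the DNMT1 KO libraries ran from 1895 to 3524 CPM. Of the 14 genes, none had an adjusted p under 0.05 between the groups in edgeR or DESeq2, where edgeR called 16.1% of all genes. At an unadjusted p under 0.05 there were 0 in edgeR and 1 in DESeq2. With batch as a term, 1 of the 14 had an adjusted p under 0.05 in edgeR and 4 in DESeq2. EdgeR called 17.8% of all genes in that fit. At an unadjusted p under 0.05 there were then 7 in edgeR and 8 in DESeq2. Shares of all genes at an unadjusted p, and in DESeq2, were not counted. HCT116 replicate 3, the lowest in this sum, was also the lowest HCT116 library for CBX1, CBX3, SUV39H1 and SUV39H2. The part of proliferation in the members' values was not tested.

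**Figure D5:**
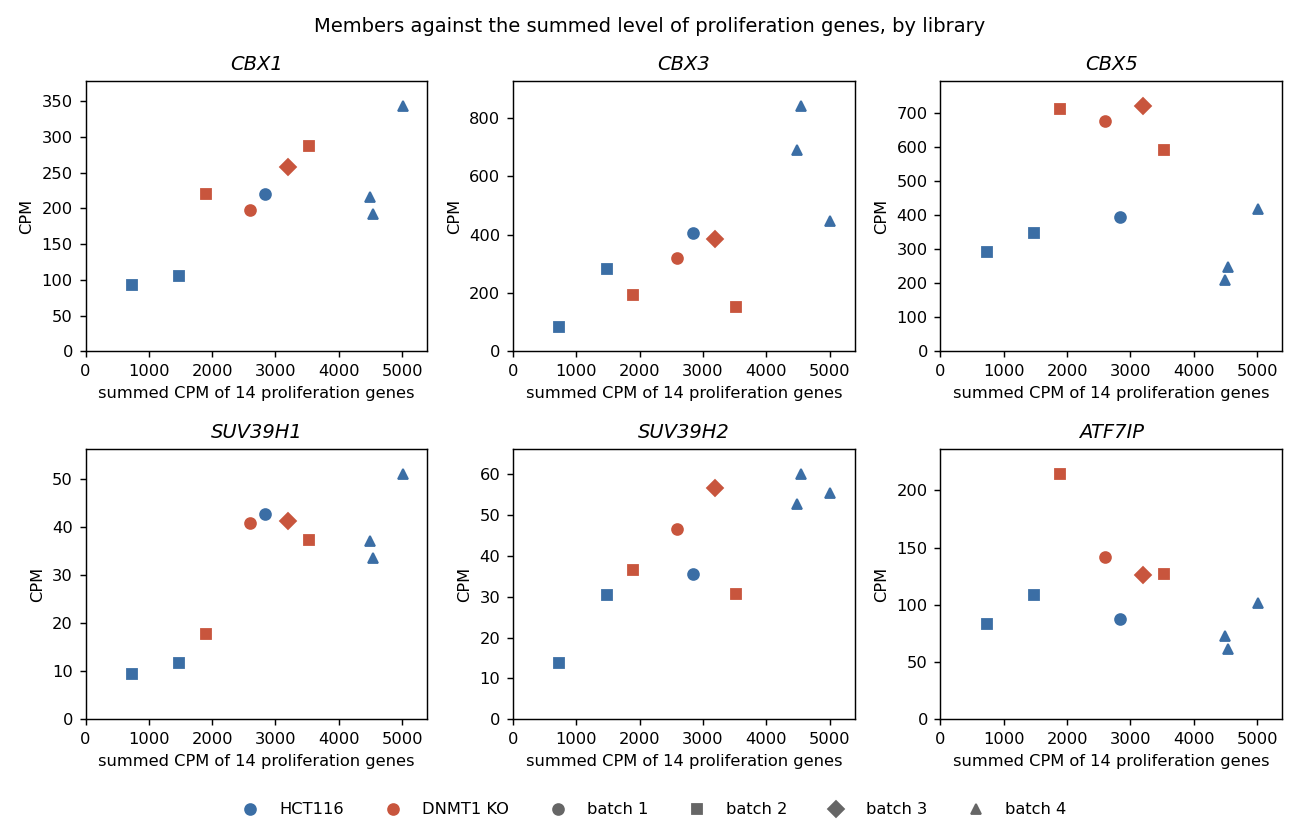
Level of 6 members (CPM) against the summed CPM of 14 proliferation genes, 1 point a library, linear axes from 0. DNMT1 KO libraries lie above all HCT116 libraries for CBX5 and ATF7IP, and the HCT116 libraries of batch 2 (squares), with sums of 731 and 1481 CPM, are the lowest for CBX1 and SUV39H1.

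Genes that act with the members were read against the shares of all genes that rose (8.45%) and fell (7.61%). Among 8 genes of SETDB1 recruitment and of the HUSH complex, which silences transposons with SETDB1, 2 rose and none fell. ATF7IP2, the paralogue of ATF7IP, had 6.76 ± 2.58 CPM in HCT116 and 14.1 ± 3.54 CPM in DNMT1 KO (log2 fold change 1.06, adjusted p = 0.0265). The fit with batch gave 1.49 (adjusted p = 0.00533). MORC2, an ATPase that works with HUSH, had 37.7 ± 12.4 and 66.8 ± 9.09 CPM (0.82, adjusted p = 0.0340), and the fit with batch gave 0.74 (adjusted p = 0.130). TRIM28, which brings SETDB1 to KRAB zinc finger proteins, had 952 ± 441 and 924 ± 264 CPM (-0.04, adjusted p = 0.950). Over the 8 genes the median was -0.01.

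Of 11 H3K9 demethylase genes, 1 rose and none fell, where 8.45% of all genes rose, with a median log2 fold change of 0.20. KDM4D had 6.86 ± 1.03 CPM in HCT116 and 14.02 ± 2.22 CPM in DNMT1 KO (1.03, adjusted p = 0.00562), and the fit with batch gave 1.17 (adjusted p = 0.00971). PHF2 had 47.3 ± 12.1 and 27.3 ± 10.5 CPM (-0.79, adjusted p = 0.0759), and the fit with batch gave -0.92 (adjusted p = 0.0379). Among 4 partners of the EHMT1 and EHMT2 heterodimer, 1 fell, where 7.61% of all genes did. CDYL, a chromodomain protein, fell from 61.6 ± 15.3 to 36.2 ± 2.39 CPM (-0.76, adjusted p = 0.0339). The fit with batch gave -0.84 (adjusted p = 0.0365). The median of the 4 was -0.34.

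Of 14 HP1 partners, 13 were tested and none passed in edgeR or DESeq2, where edgeR called 16.1% of all genes, with 1 at an unadjusted p under 0.05 in each and a median log2 fold change of 0.15. ATRX, a chromatin remodeller that binds HP1, had 71.7 ± 24.6 and 114 ± 19.8 CPM (0.67, adjusted p = 0.0950). INCENP, a centromere protein that binds HP1, had a log2 fold change of 0.74 (adjusted p = 0.215) and of 1.47 (adjusted p = 0.00588) with batch as a term. The 5 Polycomb CBX genes, which carry a chromodomain of the same family but read methylated lysine 27, had a median log2 fold change of -0.01 and none passed in either tool, also at an unadjusted p under 0.05. CBX7 had the largest value among them, at 0.50 (adjusted p = 0.218).

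Genes most like the 3 changed members in level across the 10 libraries were also read off, as a description with no test over 12716 protein-coding genes. For CBX5 they were PROB1 (Pearson r of log2 CPM 0.968), BCL2 (0.966) and ST3GAL2 (0.964), for SETDB2 they were ASPH (0.980), ISCU (0.977) and IBTK (0.976), and for ATF7IP they were L1CAM (0.969), UBR2 (0.957) and BCL2 (0.952). All 10 points share the libraries and their scaling, and a correlation over 2 separated groups largely restates the difference between them.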

How the data were processed

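The authors extracted RNA from frozen pellets, made poly(A)-selected stranded libraries, sequenced them as short paired-end reads on a NovaSeq, checked and trimmed the reads (FastQC 0.11.4 and Trim Galore 0.4.1 in the submitters' processing notes), and aligned them to hg38 by Bowtie2, an aligner without splicing, so reads over exon junctions are lost in part. Alignments of low quality were dropped. As deposited, the values are raw counts that featureCounts assigned to the exons of each gene, not normalised, with no strand option named. Per-library tables numbering 3, for HCT116 libraries that the sample list does not contain, were not used. The tables hold 58884 Ensembl genes, of which 58472 matched the GENCODE annotation of hg38. Promoter windows are from RefSeq on hg38, where all 10 members matched. Sequences of proteins were not used here.

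Groups and batches are those of the labels. Counts were tested by the two-sided quasi-likelihood test of edgeR 4.0.16 in R 4.3.3, after TMM scaling and the default filterByExpr, in a model of group alone, with Benjamini-Hochberg adjustment over 19279 genes, and a gene rose or fell at an adjusted p under 0.05. Standard errors are the size of the change over the square root of the F statistic. CPM use TMM-scaled totals, and TPM use the exon length in the tables. Ratios of members and single genes were compared by exact permutation (two-sided, 210 arrangements, 0.00952 the smallest p possible). A pair of EHMT1 with EHMT2 was planned and could not be computed, since EHMT2 is at 0. The scripts were tested on simulated data. Among values of 1 to 10, 64.4 to 70.0% were even in 9 libraries and 39.9% in DNMT1 KO replicate 4, so counts may be of mates and an alternative halved them in the 9. Other alternatives were other scaling, filters, DESeq2 1.42.0, batch as a term, single batches, the likelihood ratio test, a replicate block and leaving out each library.

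All members, the targeted gene, pathway genes that passed (up to 4 a list) with at least 1 that did not, genes starting within 1000 bases on the opposite strand, and the 3 most similar genes of each changed member are named. The rule allowed up to 3 genes of each marker list. The cell type markers named beyond it, and the choice among them, followed after their values were seen. The members and the lists were chosen with earlier results of these data known. The list of other cell types held 1 further marker, which was left out of its counts and sums and is not reported here.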

Additional observations from a re-analysis of the deposited data

Results flagged for a closer look

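In groups of 4 to 10 libraries, 2 of 48 groups of values held a library far from the others, against 2.4 expected by chance, since chance flags about 1 in 20. SUV39H1 in DNMT1 KO replicate 3 had 17.9 CPM, while the other 3 libraries of the group had 37.4 to 41.2 CPM. CAB39L, the gene that starts beside SETDB2, had 4.75 CPM in the same library, against 1.22 to 1.78 CPM in the other 3. The cause was not tested in either case.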

How the results depend on the processing

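Each member was recomputed under 22 alternatives, and CBX5, SETDB2 and ATF7IP kept their direction in all of them, with an adjusted p under 0.05 in 19, 12 and 16. CBX1, CBX3, SUV39H1 and EHMT1 also kept their direction throughout. For CBX5 the call was lost with batch as a term (0.94), in batch 2 alone (1.03) and with the replicate block over replicates 1 to 3 (0.94). For ATF7IP it was lost with batch as a term (0.79), in batches 1 and 2 alone with batch as a term (0.79), in batch 2 alone (0.84) and with the replicate block (0.77). For SETDB2 it was lost with library totals alone (-0.75), with batch as a term (-0.99), in batches 1 and 2 alone with batch as a term (-0.99), in batch 2 alone (-1.18) and with the replicate block (-1.03). The fits of single batches use fewer libraries, and those with batch or a block as a term have fewer residual degrees of freedom. Over all genes, edgeR called 17.8% with batch as a term and 16.1% without it. The causes of the lost calls were not tested. CBX1 passed in batch 2 alone (1.37). DESeq2 with batch as a term was chosen after seeing the data.

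Leaving out 1 library gave log2 fold changes of 0.99 to 1.18 for CBX5, 0.65 to 0.93 for ATF7IP and -1.13 to -0.80 for SETDB2. SUV39H2 ran from -0.13 to 0.18 and reversed without HCT116 replicate 3 (-0.10) or DNMT1 KO replicate 4 (-0.13), and SETDB1 ran from -0.041 to 0.25 and reversed without DNMT1 KO replicate 2 (-0.041). None of these reversals passed. The log2 ratio of SUV39H1 to SUV39H2 ran from -0.038 to 0.40, at -0.00065 when HCT116 replicate 2 was left out and at -0.038 when DNMT1 KO replicate 2 was, and was -0.45 in batch 1 alone. The log2 ratio of ATF7IP to SETDB1 was 0.37 in batch 1 alone, and that of CBX5 to CBX1 was -0.33 in batch 2 alone. Between HCT116 batches, leaving out 1 library gave 0.53 to 1.33 for CBX1, 0.93 to 1.84 for CBX3, 0.57 to 1.93 for SUV39H1, 0.75 to 1.33 for SUV39H2 and -0.35 to 0.024 for SETDB2, which reversed without HCT116 replicate 2 (0.024). Those of CBX1 (1.33), CBX3 (1.84), SUV39H1 (1.93) and SUV39H2 (1.33) passed without HCT116 replicate 1 and in no other alternative. The share of all genes called in that fit was not counted.

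Over all genes, 1431 rose and 1251 fell beyond a log2 fold change of 1. These counts were 734 and 766 with at least 10 counts required in every library, 815 and 798 in batch 2 alone, and 1214 to 1587 and 987 to 1250 with 1 library left out. With library totals alone they were 1878 and 956, and the median log2 fold change of all genes moved from -0.07 to 0.14, which is the shift against which the member values under that scaling stand. Same-numbered libraries of replicates 1 to 3 correlated at 0.60, -0.31 and 0.35 in their deviations from the group means, and DNMT1 KO replicate 3 correlated best with HCT116 replicate 2 (0.67), so the numbers were not taken to pair the libraries and the block is given here only.

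Limits: 2 of the 4 batches hold a single group, SETDB2 and its neighbour have few counts, and EHMT2 and its region could not be assessed in these tables.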
